A study of Mus musculus with 3 samples.

Results

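Prostaglandins that act on receptors coupled to the stimulatory G protein raise cyclic AMP (cAMP), and 8 genes known to respond to that signal were followed here in mouse skin: Nr4a1 (ENSMUSG00000023034), Nr4a2 (ENSMUSG00000026826), Nr4a3 (ENSMUSG00000028341), Crem (ENSMUSG00000063889), Pde4b (ENSMUSG00000028525), Pde4d (ENSMUSG00000021699), Thbs1 (ENSMUSG00000040152) and Rgs2 (ENSMUSG00000026360). They were taken by symbol, and each symbol matched 1 of the 32285 genes in the deposited matrices. The data came from 10x Genomics 3′ single-cell RNA sequencing of dorsal skin from 8-week-old C57Bl/6 male mice in telogen, after enrichment for CD45+ cells (leukocytes) on magnetic beads. WTctrl was wild-type skin without UVB, WTUV was wild-type skin after 3 UVB exposures given on alternate days, and RPUV was UVB-exposed skin of genotype RP. Per the study, both UVB libraries were collected at the time point of its bulk RNA samples, hours after the last exposure. Later times were not sequenced. Per the methods of the study, RP mice carry Rosa26-rtTA and Tre-Ptgs2, so that doxycycline switches on rat Ptgs2 (the prostaglandin-making enzyme Cox-2) throughout the body and not in 1 cell type. RPUV therefore differed from WTctrl in both genotype and UVB. Whether the wild-type mice of these libraries received doxycycline is not given. The drug may thus be a further difference of RPUV from both WTctrl and WTUV. Each group held 1 library from male skin, and the RPUV library came from 1 mouse, per the legends of the study. With 1 library to a group there was no replicate check and nothing was tested, and all intervals below cover counting error only.

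cAMP activates protein kinase A (PKA), which phosphorylates CREB and related factors bound at cAMP response elements (CREs), short DNA sites whose core is TGACG. In myeloid cells this pathway is known to follow the prostaglandin E2 receptors encoded by Ptger2 and Ptger4. The 8 genes fall into 3 roles. Nr4a1, Nr4a2 and Nr4a3 encode orphan nuclear receptors of the immediate early type, and Crem encodes a CREB relative whose short isoform ICER represses CRE promoters. Pde4b and Pde4d encode phosphodiesterases that hydrolyse cAMP, and Rgs2 encodes a regulator that shortens G protein signals, so these 3 are feedback genes. Thbs1 encodes the secreted matrix protein thrombospondin 1. All 8 also answer to other stimuli, among them calcium, growth factors and cell stress.

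The sequence before the gene starts is shown because the 3 Nr4a genes and Rgs2 carry repeated CRE core letters there. The RefSeq promoter entries used here, on GRCm38.p6, the assembly that mm10 names, covered 6 of the 8 genes with 9 starts. For the 8 genes, entries on 1 chromosome were set aside before matching, while the comparison with all promoters kept that chromosome. No start of Crem or Thbs1 was matched, so both were left out of the search. Whether the entries set aside held either gene was not examined. Their absence here does not show that RefSeq lists no start for them, and their promoters were not examined for CREs. The 250 bases before each start were searched for TGACG on either strand, which reads CGTCA when it lies on the other strand, and for the full 8-base palindrome, TGACG followed directly by TCA, in which both overlap. No start of the 6 genes searched held the palindrome, which was present in 1.55% of all 32851 promoters of the same length. The stretches with at least 1 core are printed 5′ to 3′ on the strand of the gene, with the 5 core bases in capitals and the last base next to the start.
Nr4a1, chr15:101266596-101266845, plus strand: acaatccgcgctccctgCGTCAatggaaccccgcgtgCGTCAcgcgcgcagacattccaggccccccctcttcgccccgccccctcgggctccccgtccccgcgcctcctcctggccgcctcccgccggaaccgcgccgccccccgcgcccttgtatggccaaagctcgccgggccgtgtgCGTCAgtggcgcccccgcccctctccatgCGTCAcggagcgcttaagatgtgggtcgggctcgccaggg
Nr4a2, chr2:57124004-57124253, minus strand: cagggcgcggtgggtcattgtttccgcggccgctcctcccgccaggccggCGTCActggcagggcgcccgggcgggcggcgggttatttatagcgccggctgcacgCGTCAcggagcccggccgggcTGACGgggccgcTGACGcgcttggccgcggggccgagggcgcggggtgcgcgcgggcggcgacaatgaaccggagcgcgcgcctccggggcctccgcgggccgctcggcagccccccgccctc
Nr4a3, chr4:48045055-48045304, plus strand: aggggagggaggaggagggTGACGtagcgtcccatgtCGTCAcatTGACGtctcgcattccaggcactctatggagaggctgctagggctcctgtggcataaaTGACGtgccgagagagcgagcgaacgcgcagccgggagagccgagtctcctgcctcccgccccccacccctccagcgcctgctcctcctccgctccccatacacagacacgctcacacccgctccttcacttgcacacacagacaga
Rgs2, chr1:144004150-144004399, minus strand: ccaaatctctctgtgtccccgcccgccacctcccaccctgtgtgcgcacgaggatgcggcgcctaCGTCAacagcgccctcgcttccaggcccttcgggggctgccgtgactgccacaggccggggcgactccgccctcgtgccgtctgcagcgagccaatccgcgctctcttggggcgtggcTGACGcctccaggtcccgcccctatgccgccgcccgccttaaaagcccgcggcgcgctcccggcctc
Pde4b, chr4:102421305-102421554, plus strand: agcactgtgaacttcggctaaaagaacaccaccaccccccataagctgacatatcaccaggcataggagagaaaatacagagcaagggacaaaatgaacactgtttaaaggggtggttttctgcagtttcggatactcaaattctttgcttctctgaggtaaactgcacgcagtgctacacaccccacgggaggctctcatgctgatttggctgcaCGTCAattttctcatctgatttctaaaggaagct

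Nr4a1, Nr4a2 and Nr4a3 each held 4 core sites in this window, a number reached by 0.137% of all promoters. In Nr4a1 the sites began 233, 213, 69 and 40 bases before the start, all in the reverse orientation. Nr4a2 had them at 200, 144, 123 and 111 bases and Nr4a3 at 231, 213, 205 and 147 bases. Rgs2 held 2, at 185 and 67 bases, and 3.9% of promoters held 2 or more. Pde4b had 1 site, 34 bases before the first of its 4 starts, and none before the other starts. Pde4d had none before the only start matched for it, and other starts of that gene were not searched. Of all promoters, 17.8% had at least 1. A match to these letters describes the sequence and does not show a bound site.

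**Figure D1:**
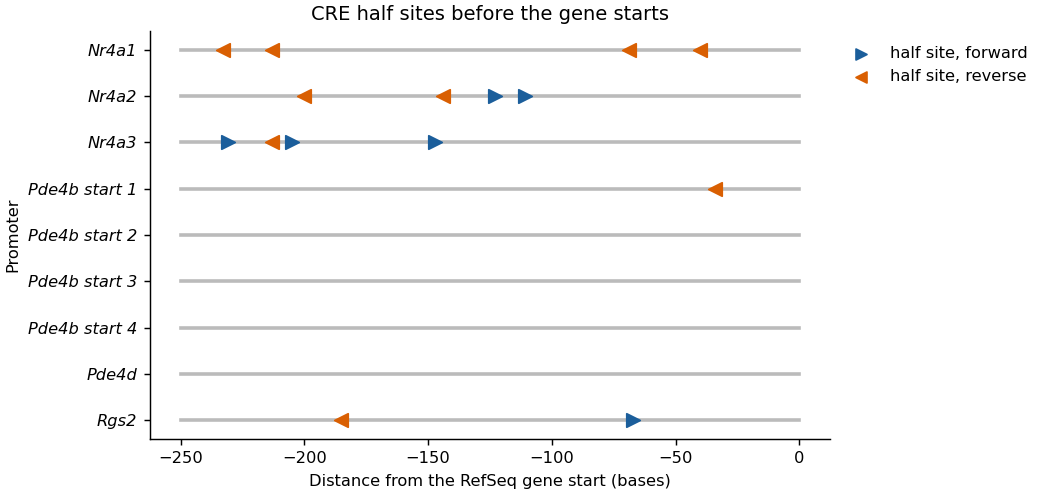
Positions of the CRE core (TGACG forward, CGTCA reverse) in the 250 bases before 9 RefSeq starts of 6 genes; the x axis is the distance from the start in bases and each grey line is 1 promoter. The 3 Nr4a genes show 4 sites each, Rgs2 shows 2 and the first Pde4b start 1.

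After filtering, 5309 cells of WTctrl, 5225 of WTUV and 6070 of RPUV were kept, with medians of 4246, 10557 and 3774 unique molecular identifiers (UMIs, counted RNA molecules) per cell. WTctrl and RPUV were run on 1 flow cell and WTUV on another, so sequencing run and group cannot be told apart in comparisons with WTUV. Pairs of libraries shared 8 to 11 cell barcodes. Cells were classed by marker panels, and every class name is to be read as "-like". The macrophage or monocyte class was the largest, with 1874, 2264 and 2340 cells, and all 10 macrophage markers were detected in each library. Levels are UMIs per 1000000 UMIs of the class (CPM) with 95% exact Poisson intervals; they are not scaled to transcript length and were not compared between genes. Ptgs2 stood at 14.4 CPM over all cells of WTctrl, 117 in WTUV and 486 in RPUV, and whether rat transcripts were counted under the mouse gene was not tested. Neutrophil RNA is named beside the results it moves with: S100a8, S100a9 and Retnlg, 3 neutrophil genes, summed to 0.412 CPM in the macrophages of WTctrl, 5.13 in WTUV and 117 in RPUV, the last being 0.444% of the level in RPUV neutrophils.

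In macrophages the 3 Nr4a genes were lowest in WTctrl, highest in WTUV and intermediate in RPUV. Nr4a1, which encodes Nur77, was at 37.9 CPM in WTctrl (33.6 to 42.7), 138 in WTUV (133 to 142) and 59.8 in RPUV (55.5 to 64.3). Nr4a2, which encodes Nurr1, was at 6.19 CPM (4.51 to 8.28), 60.5 (57.7 to 63.5) and 24.9 (22.2 to 27.9) in the same order. Nr4a3, which encodes NOR1, was at 5.09 CPM (3.58 to 7.01), 32.1 (29.99 to 34.3) and 11.3 (9.51 to 13.4). No intervals of the 3 libraries overlapped for any of these genes. WTUV was above WTctrl 3.63-fold for Nr4a1 (3.21 to 4.11), 9.79-fold for Nr4a2 (7.28 to 13.5) and 6.31-fold for Nr4a3 (4.54 to 9.02). When the clusters left unnamed were added to the class of their best panel, the log2 fold of Nr4a3 was 1.04 and not 2.44. RPUV was below WTUV by 2.30-fold for Nr4a1 (2.13 to 2.49), 2.43-fold for Nr4a2 (2.15 to 2.75) and 2.83-fold for Nr4a3 (2.37 to 3.42). Against WTctrl, which shared its run, RPUV was 1.58-fold higher for Nr4a1 (1.37 to 1.82), 4.03-fold for Nr4a2 (2.94 to 5.64) and 2.22-fold for Nr4a3 (1.54 to 3.29). The last value moved with neutrophil RNA: in macrophages without a UMI of the 3 neutrophil genes Nr4a3 was 1.73-fold higher (1.17 to 2.59), and Nr4a2 3.62-fold (2.63 to 5.09). It also turned with the best panel, to a log2 fold of -0.26, while Nr4a2 then stood at 0.92, under 2-fold.

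Crem showed another order, since both UVB libraries lay together above WTctrl. Its level was 12.1 CPM in WTctrl (9.70 to 14.9), 40.2 in WTUV (37.8 to 42.6) and 37.6 in RPUV (34.2 to 41.2). The fold over WTctrl was 3.32 in WTUV (2.67 to 4.18) and 3.10 in RPUV (2.47 to 3.95), and the ratio of RPUV to WTUV was 0.935 (0.836 to 1.04), an interval that holds 1. The phosphodiesterase genes were below 2-fold in every comparison of the whole macrophage class. Pde4b was at 23.4, 26.7 and 21.0 CPM in WTctrl, WTUV and RPUV, with a WTUV to WTctrl ratio of 1.14 (0.967 to 1.36) an RPUV to WTctrl ratio of 0.898 (0.737 to 1.10) and an RPUV to WTUV ratio of 0.785 (0.679 to 0.907), the last lying below 1. Pde4d was near the limit of this depth at 5.09, 6.36 and 5.82 CPM, from 37, 175 and 71 UMIs, and none of its 3 ratios had an interval that left out 1.

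Thbs1 had the widest range of the 8 genes in macrophages. It was represented by 7 UMIs in 1874 cells of WTctrl, or 0.962 CPM (0.387 to 1.98), against 88.4 CPM in WTUV (84.9 to 92.0) and 97.4 in RPUV (92.0 to 103). WTUV exceeded WTctrl 91.9-fold (44.5 to 229) and RPUV exceeded it 101-fold (49.0 to 252), with the wide intervals set by the 7 UMIs. RPUV was 1.10-fold above WTUV (1.03 to 1.18), but without the cells that carried a neutrophil UMI the order turned, to 88.3 CPM in WTUV and 78.7 in RPUV, a ratio of 0.891 (0.823 to 0.965). It turned under 5 of 10 alternatives, with log2 folds from -0.39 to 0.42 over all of them, so no order of the UVB libraries was read for this gene. The rise over WTctrl stayed at 81.7-fold in RPUV (39.5 to 204) without those cells. Rgs2 was the only one of the 8 genes with its lowest macrophage level in RPUV by intervals that did not overlap the others, at 165 CPM in WTctrl (156 to 175), 255 in WTUV (249 to 261) and 86.9 in RPUV (81.8 to 92.3). It was 1.54-fold above WTctrl in WTUV (1.45 to 1.64), and RPUV lay 2.93-fold below WTUV (2.75 to 3.13) and 1.90-fold below WTctrl (1.75 to 2.06).

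**Figure D2:**
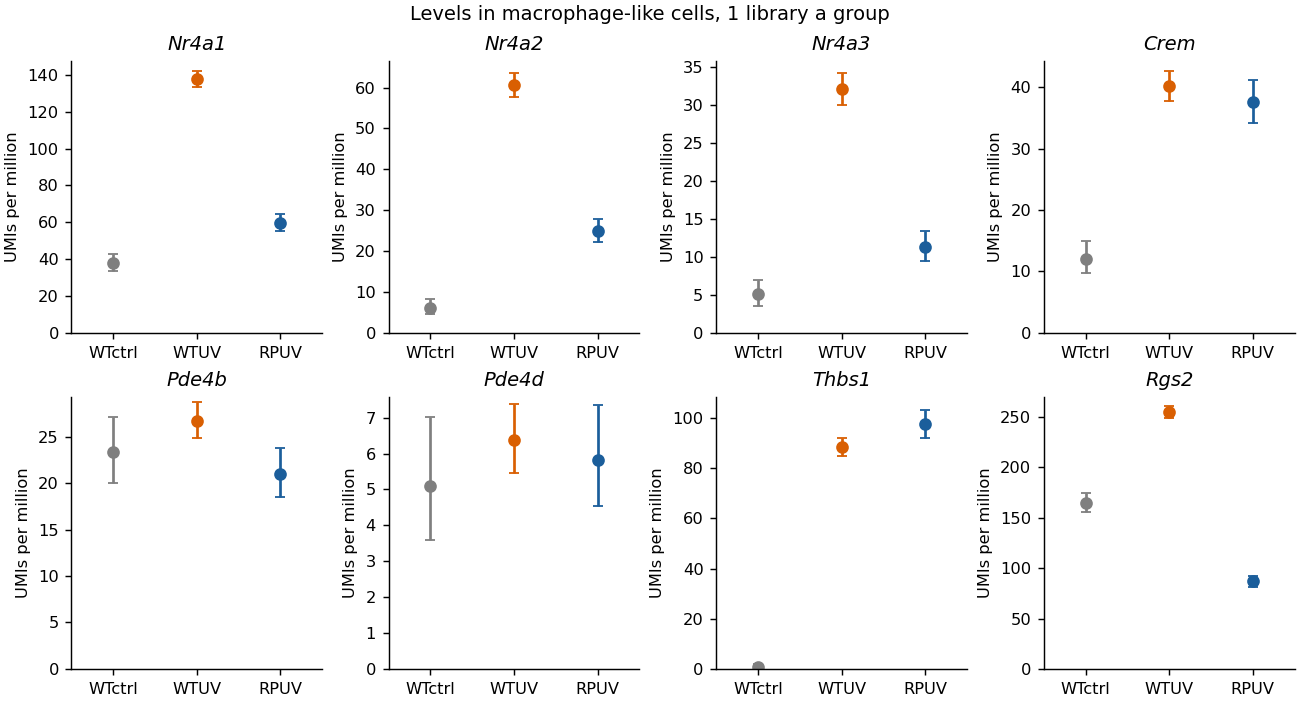
Level of each of the 8 genes in macrophage-like cells (y axis, CPM, from 0) in the 3 libraries (x axis); points are 1 library each and bars are 95% exact Poisson intervals. The 3 Nr4a genes peak in WTUV, Crem and Thbs1 are high in both UVB libraries, Pde4b and Pde4d differ least and Rgs2 is lowest in RPUV.

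A gene was counted as higher or lower at a fold of at least 2, among genes that averaged at least 10 CPM over the libraries, a filter passed by 7 of the 8 genes in macrophages (Pde4d was below it). In WTUV against WTctrl 5 of the 7 were higher (Nr4a1, Nr4a2, Nr4a3, Crem and Thbs1) and 0 lower, where 3.28% of 7630 genes were higher and 0.917% lower. In RPUV against WTUV 0 were higher and 4 lower (Nr4a1, Nr4a2, Nr4a3 and Rgs2), where 1.11% of genes were higher and 3.09% lower. The Nr4a1 call was lost when cells were classed one by one from marker UMIs, at a log2 fold of -0.72. In RPUV against WTctrl 4 were higher (Nr4a2, Nr4a3, Crem and Thbs1) and 0 lower, with 4.46% and 4.15% of genes in these directions. The median log2 fold of all 8 genes, on a scale with 1 CPM added, was 1.74, -0.76 and 0.83 in the 3 comparisons, beside 0.04, -0.03 and 0.04 over the genes tested. These comparisons share libraries and are not independent of each other.

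The levels rested on parts of the macrophage class to unequal degrees. Most macrophages of the 3 libraries lay in different fine clusters: 0.0, 1.1 and 2.1 in WTctrl, 0.2, 1.0 and 2.2 in WTUV, and 1.2, 0.1 and 2.0 in RPUV. Nearly all of them lay in 4 broad clusters of the integrated data. Cluster 0 was led by Ccl8, the parts of cluster 1 by genes such as Folr2, Lyve1 and Ednrb, and those of cluster 2 by Pf4, Ms4a7 or C1qc. Cluster 4 had no single leading gene and the highest Ly6c2 and Ccr2, which mark monocytes. Its parts, too, were unlike in WTctrl, WTUV and RPUV: 4.2 held 104, 46 and 16 cells, 4.0 held 4, 189 and 28, and 4.5 held 1, 6 and 111. Parts 4.1 and 4.3 stayed unnamed and were not in the class. The part of these splits in the folds within clusters was not tested. In each library Nr4a1, Nr4a2 and Nr4a3 were at their highest in cluster 4. Nr4a1 in WTUV, for example, ran from 17.9 CPM in cluster 0 and 35.2 in cluster 1 to 253 in cluster 2 and 375 in cluster 4. In WTctrl the same clusters gave 6.31, 34.4, 35.7 and 168 CPM, and in RPUV 11.8, 42.9, 82.4 and 213 CPM. In cluster 4 the RPUV value moved with neutrophil RNA: without cells carrying a neutrophil UMI, Nr4a1 was at 159 CPM in RPUV (133 to 190) and 164 in WTctrl (138 to 194).

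Within clusters 2 and 4 each Nr4a gene was at its highest in WTUV by intervals of the folds that left out 1, while RPUV and WTctrl were not always apart: for Nr4a3 in cluster 2 their ratio was 1.46 (0.670 to 3.63), besides Nr4a1 in cluster 4 above. In cluster 0 Nr4a3 was at 3.47, 3.90 and 2.01 CPM in WTctrl, WTUV and RPUV, and the interval of each ratio held 1. In cluster 2 the WTUV to WTctrl fold was 7.09 for Nr4a1 (5.19 to 9.96), 10.9 for Nr4a2 (5.89 to 22.8) and 6.90 for Nr4a3 (3.47 to 16.1). In cluster 1 the fold of Nr4a1 was 1.02 (0.776 to 1.36), with RPUV against WTUV at 1.22 (0.975 to 1.52), so no difference of this gene was detectable there. Nr4a2 was above WTctrl in WTUV in all 4 clusters, from 3.37-fold in cluster 1 (1.62 to 8.12) to 10.9-fold in cluster 2. The WTUV to WTctrl fold of Crem was unequal between clusters, at 1.07 in cluster 1 (0.703 to 1.65), 1.96 in cluster 0 (1.32 to 3.00), 3.72 in cluster 2 (2.30 to 6.45) and 8.41 in cluster 4 (4.53 to 17.7). Pde4b had opposite directions in different clusters, with WTUV to WTctrl folds of 0.511 in cluster 1 (0.359 to 0.731), 0.675 in cluster 0 (0.498 to 0.924), 1.68 in cluster 2 (1.08 to 2.73) and 2.25 in cluster 4 (1.49 to 3.55). In cluster 0 Crem was higher in RPUV than in WTUV, at 32.7 against 17.9 CPM (1.83-fold, 1.45 to 2.30).

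Thbs1 was concentrated in clusters 2 and 4. In WTUV it was at 1.52, 8.61, 165 and 281 CPM in clusters 0, 1, 2 and 4, and in RPUV at 6.04, 7.69, 111 and 677 CPM. In WTctrl it had 0 UMIs in clusters 0 and 1, 1 in cluster 2 and 6 in cluster 4, which allows up to 1.16 CPM in cluster 0 and 1.74 in cluster 1. In cluster 4 RPUV was 2.41-fold above WTUV (2.19 to 2.64), and there S100a8 moved with it, at 2.41, 1.53 and 465 CPM in WTctrl, WTUV and RPUV. Without the cells carrying a neutrophil UMI, which left 132 of 189 RPUV cells in cluster 4, Thbs1 was at 581 CPM in RPUV (529 to 637) and 283 in WTUV (266 to 300), a ratio of 2.05 (1.84 to 2.29). Rgs2 was below WTUV in RPUV in all 4 clusters, by 3.09-fold in cluster 0 (2.55 to 3.78), 2.71-fold in cluster 1 (2.29 to 3.21), 3.02-fold in cluster 2 (2.76 to 3.32) and 2.18-fold in cluster 4 (1.91 to 2.51). RPUV lay below WTctrl too in each of them, by 3.52-fold in cluster 0 (2.84 to 4.38) and by 1.81-fold to 1.96-fold in the others.

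**Figure D3:**
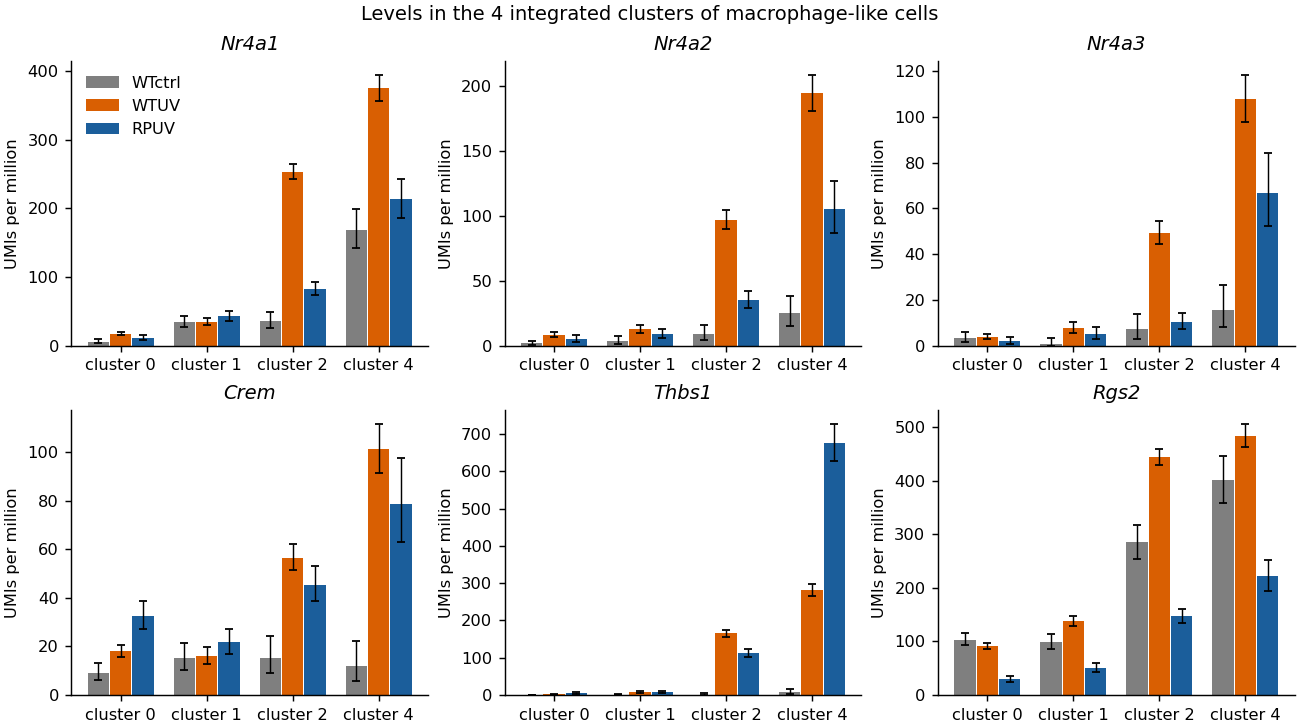
Levels of 6 genes (y axis, CPM, from 0) in the 4 integrated clusters of macrophage-like cells (x axis), with 1 bar per library and 95% exact Poisson intervals. Clusters 2 and 4 hold the highest Nr4a, Crem and Thbs1 levels in WTUV, and Rgs2 is lowest in RPUV in every cluster.

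Shares of cells with a UMI were compared after each cell was drawn down to 2000 UMIs, which left 1588, 2178 and 2085 macrophages in WTctrl, WTUV and RPUV. Nr4a1 was seen in 4.97% of them in WTctrl (Wilson 95% interval 4.01% to 6.16%), 17.95% in WTUV (16.4% to 19.6%) and 9.64% in RPUV (8.45% to 10.98%), against 7.84%, 37.5% and 16.8% before the draw. Thbs1 was seen in 0.189% (0.0643% to 0.554%), 7.30% (6.28% to 8.47%) and 6.91% (5.90% to 8.08%), against 0.267%, 13.4% and 9.66%. Rgs2 was seen in 24.1% (22.0% to 26.2%), 30.6% (28.7% to 32.6%) and 13.9% (12.4% to 15.4%), against 34.7%, 65.6% and 23.1%. For these 3 genes the order of the shares was that of the CPM, except that Thbs1 was a little lower in RPUV than in WTUV with overlapping intervals. For comparison, the share of WTctrl T cells with a Thbs1 UMI was 0 of 277, which allows up to 1.37%. It was 1.53% of 655 in WTUV (0.831% to 2.79%) and 10.8% of 37 in RPUV (4.29% to 24.7%), at median depths of 2510.5, 6236 and 2260 UMIs. In WTUV the share of macrophages exceeded that of T cells, while in RPUV the interval of T cells held the value of macrophages. T cells are no clean measure of free RNA, since cluster 12.3, with 17 RPUV cells, had macrophages as its second-best panel. Scaled by the 3 neutrophil genes, neutrophil RNA would make up 4.08% of the Thbs1 level of RPUV macrophages. The part of free RNA in their share of cells was not tested.

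The genes were found together in few macrophages. At 2000 UMIs a macrophage held a UMI of at least 3 of the 8 genes in 0.567% of cells in WTctrl (0.298% to 1.07%), 9.46% in WTUV (8.30% to 10.8%) and 2.97% in RPUV (2.33% to 3.79%). The unthinned shares were 2.35%, 29.1% and 9.15%. Cells with none of the 8 made up 67.2%, 52.2% and 66.6%. In Langerhans cells, by comparison, at least 3 genes were seen in 50% of 78 cells in WTctrl (39.2% to 60.8%), 32.3% of 96 in WTUV (23.8% to 42.2%) and 31.4% of 35 in RPUV (18.6% to 48.0%).

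Across the 30 combinations of class and library with at least 30 cells, each gene had its own set of high classes. Nr4a1 was highest in neutrophils, at 1034 CPM in WTUV (901 to 1182) and 754 in RPUV, followed by Schwann cells of RPUV at 670 and Langerhans cells of WTctrl at 641. It was lowest in keratinocytes of RPUV, at 21.5 CPM (18.5 to 24.9). Nr4a2 was highest in Schwann cells, the glia of skin nerves, at 679 CPM in RPUV (604 to 760) and 502 in WTctrl (398 to 625), and the next level was 263 CPM in WTUV neutrophils. Nr4a3 was highest in WTUV neutrophils (742 CPM) and in mature dendritic cells of WTUV (677 CPM), which did not differ beyond counting error. It stood at 449 CPM in WTUV Langerhans cells and 422 in WTctrl dendritic cells, and Schwann cells held only 18.8 and 13.5 CPM in WTctrl and RPUV. Neighbours in the order differed beyond counting error in 5 of 29 steps for Nr4a1, 7 for Nr4a2 and 4 for Nr4a3.

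Crem had the flattest profile, from 9.86 CPM in WTUV keratinocytes to 137 in RPUV mast cells, and in 0 of 29 steps did neighbours differ beyond counting error. The highest value rested on 9 UMIs in 41 cells (62.9 to 261), beside 5423 CPM of the 3 neutrophil genes. Pde4b was highest in neutrophils, at 326 CPM in WTUV (253 to 413) and 232 in RPUV (209 to 256), followed by mature dendritic cells at 116. Pde4d had different high classes: mast cells at 107, 177 and 137 CPM in WTctrl, WTUV and RPUV, fibroblasts of RPUV at 113 and Langerhans cells of WTctrl at 97.9. Mast cells held few Pde4b UMIs, 2, 4 and 1 in the 3 libraries, where Pde4d had 5, 44 and 9. Thbs1 was highest in neutrophils, at 895 CPM in RPUV (849 to 942) and 752 in WTUV (639 to 879), then in fibroblasts of RPUV at 232. Rgs2 was highest in Langerhans cells, the antigen-presenting cells of the epidermis, at 2507 CPM in WTctrl (2359 to 2661), 1354 in WTUV and 1300 in RPUV, and in mast cells of WTctrl at 1684. T cells held 1057, 878 and 1051 CPM in the 3 libraries, and keratinocytes 22.5, 45.3 and 10.8.

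**Figure D4:**
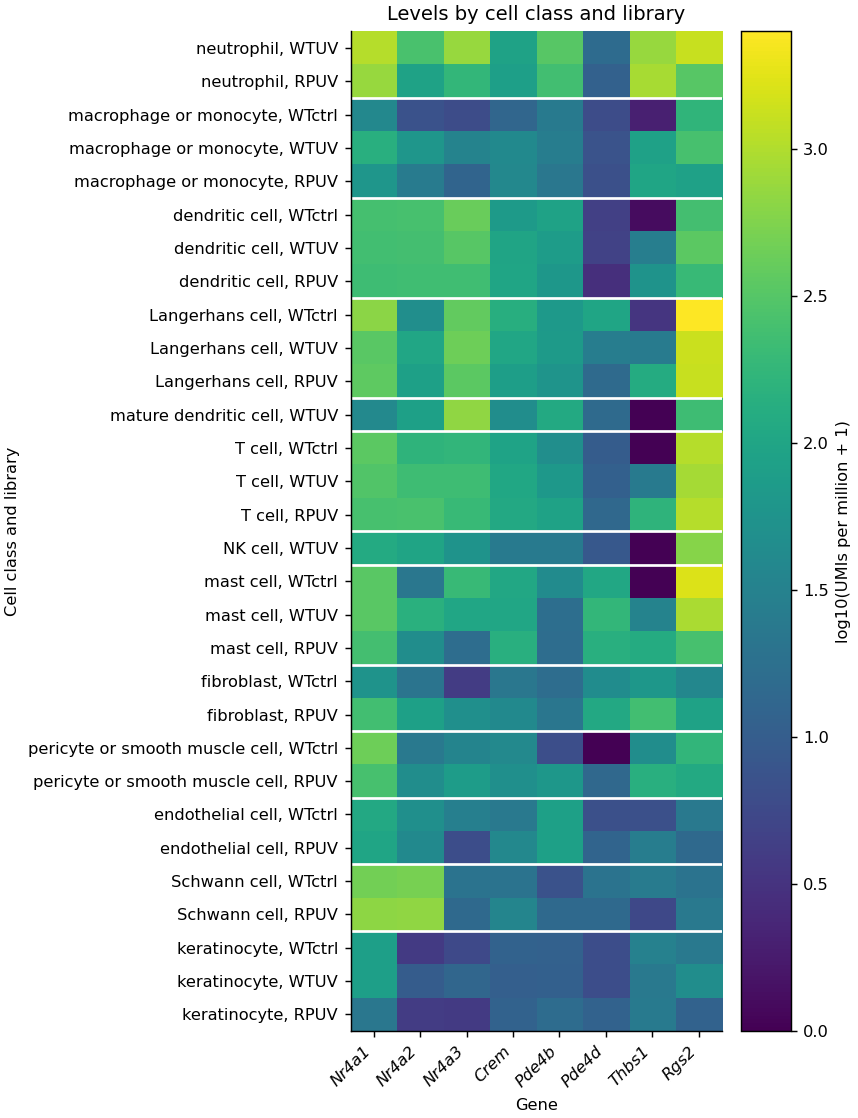
Heat map of the 8 genes (x axis) in the 30 combinations of cell class and library with at least 30 cells (y axis); colour is log10 of CPM plus 1. Schwann cells stand out for Nr4a2, neutrophils for Nr4a1 and Thbs1, mast cells for Pde4d and Langerhans cells for Rgs2.

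In dendritic cells and T cells Thbs1 was the only one of the genes past the filter to reach a 2-fold difference, though several others differed beyond counting error. The dendritic cells of the libraries lay partly in different clusters: 3.2 held 208 in WTctrl, 75 in WTUV and 3 in RPUV, and 3.1 held 5, 236 and 78. In dendritic cells Nr4a1 was at 246, 236 and 223 CPM in WTctrl, WTUV and RPUV, and Nr4a2 at 257, 244 and 227, with every pair of libraries within counting error. Nr4a3 declined through the same order, at 422 (400 to 445), 329 (317 to 340) and 224 CPM (196 to 254), so that RPUV was 1.88-fold below WTctrl (1.64 to 2.17). Of the 7 genes that passed the filter there, 1 (Thbs1) was at least 2-fold higher in WTUV than in WTctrl, where 3.83% of genes were, and 0 were lower, where 1.31% were. Between RPUV and WTUV the counts were again 1 (Thbs1) and 0, with 2.18% of genes higher and 3.97% lower, and so they were in RPUV against WTctrl, with 6.72% and 6.09%. Thbs1 in dendritic cells rested on 1 UMI in WTctrl, against 27.3 CPM in WTUV (24.1 to 30.8) and 55.5 in RPUV (42.2 to 71.6). The difference between RPUV and WTUV was absent when cells were clustered without integration (log2 fold -0.046). Rgs2 was at 242 CPM in WTctrl (225 to 260), 346 in WTUV (334 to 358) and 196 in RPUV (170 to 224), so that RPUV was 1.77-fold below WTUV (1.54 to 2.04). Crem was higher than in WTctrl 1.37-fold in WTUV (1.19 to 1.60) and 1.41-fold in RPUV (1.10 to 1.78), and the RPUV to WTctrl ratio of Pde4b was 0.686 (0.516 to 0.9002).

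In T cells 1 of the 8 genes, Thbs1 again, was at least 2-fold higher in each comparison, and 0 were lower. The background was 3.13% higher and 0.96% lower in WTUV against WTctrl, 8.66% and 8.94% in RPUV against WTUV, and 11.1% and 10.4% in RPUV against WTctrl. Thbs1 had 0 UMIs in WTctrl, 23.1 CPM in WTUV (19.8 to 26.8) and 164 in RPUV (116 to 225), the last from 38 UMIs in 6 of 68 cells. The 3 neutrophil genes moved with it, at 0, 46.5 and 1844 CPM, the last being 7.02% of their level in neutrophils. With cells classed one by one from marker UMIs, Thbs1 turned in T cells, to log2 folds of -3.99 in RPUV against WTUV and -1.67 against WTctrl. Nr4a2 was at 161, 217 and 263 CPM in T cells, 1.64-fold higher in RPUV than in WTctrl (1.21 to 2.18). With WTUV cells held to under 4000 genes its log2 fold in WTUV against WTctrl turned, to -0.09. Pde4b was at 46.6, 63.1 and 90.5 CPM, 1.94-fold higher in RPUV than in WTctrl (1.12 to 3.22), but its log2 fold was 0.12 without cells carrying a neutrophil UMI. Nr4a1 was at 344, 303 and 258 CPM, with an RPUV to WTctrl ratio of 0.752 (0.565 to 0.986), which turned to a log2 fold of 0.29 with cells classed one by one. Rgs2 was at 1057, 878 and 1051 CPM. Langerhans cells had less Rgs2 and Nr4a1 in both UVB libraries: Nr4a1 went from 641 CPM in WTctrl to 335 in WTUV and 360 in RPUV, and Rgs2 from 2507 to 1354 and 1300. Both were 1.78-fold to 1.93-fold below WTctrl, under the 2-fold limit. Of the 8 genes in Langerhans cells, 2 were at least 2-fold higher (Nr4a2, and Thbs1 from 1 UMI in WTctrl) and 1 lower (Pde4d) in WTUV against WTctrl, where 9.11% of genes were higher and 4.96% lower. With WTUV cells held to under 4000 genes the log2 fold of Thbs1 turned, to -1.74, and that of Nr4a2 was 0.13. The clusters of these cells were also unlike, with 20.1 holding 33, 10 and 2 cells and 20.2 holding 32, 10 and 1. In RPUV against WTUV 1 was higher (Thbs1) and 0 lower, with 10% and 10.9% of genes, and in RPUV against WTctrl 1 was higher (Thbs1) and 1 lower (Pde4d), with 17.3% and 12.9%. Pde4d was at 97.9, 26.6 and 14.0 CPM in these cells, from 42, 44 and 3 UMIs. The 3 neutrophil genes were at 1585 CPM in RPUV Langerhans cells.

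Fibroblasts were compared between WTctrl (365 cells) and RPUV (409 cells) only, since WTUV held 11. The class lay largely in different clusters in each library: 13.1 held 153 cells of WTctrl and 19 of RPUV, while 13.0 held 3 and 184, and the part of this split in the folds was not tested. All 8 genes passed the filter, and 6 of them were at least 2-fold higher in RPUV, where 6.21% of 8482 genes were, and 0 lower, where 3.68% were. Nr4a1 went from 54.2 CPM in WTctrl (43.6 to 66.6) to 232 in RPUV (208 to 258), or 4.28-fold (3.38 to 5.45). Nr4a2 went from 19.1 to 84.0 CPM, or 4.41-fold (2.97 to 6.72). Nr4a3 went from 2.98 CPM, which was 5 UMIs, to 48.8, or 16.4-fold (6.71 to 52.0). Thbs1 was 3.78-fold higher (3.02 to 4.76), Pde4d 2.57-fold (1.94 to 3.42) and Rgs2 2.44-fold (1.79 to 3.37), the last under 2-fold with cells classed one by one (log2 fold 0.86). Crem, at 1.90-fold (1.23 to 2.95), and Pde4b, at 1.31-fold (0.750 to 2.31), were below the limit. In the same cells 5 of the 17 genes of a list for stress during dissociation were at least 2-fold higher and 0 lower, with a median log2 fold of 0.69 beside 0.13 over all genes tested, and its part in the result was not tested. The 3 neutrophil genes summed to 0.596 CPM in WTctrl fibroblasts and 53.5 in RPUV, or 0.204% of their level in neutrophils. At 2000 UMIs Nr4a1 was seen in 11.4% of 281 fibroblasts in WTctrl (8.18% to 15.6%) and 26.3% of 240 in RPUV (21.1% to 32.2%).

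Keratinocytes showed the opposite direction for Nr4a1 and Rgs2 in RPUV. The keratinocytes, too, lay partly in different clusters in WTctrl and RPUV: 5.0 held 272 and 22, 7.1 held 198 and 5, 5.3 held 2 and 113, 7.3 held 6 and 92, 15.0 held 1 and 78, and 19.0, with sebocyte genes, held 10 and 97, and the part of this split was not tested. Nr4a1 was at 81.2 CPM in WTctrl (75.1 to 87.7), 81.0 in WTUV (74.5 to 87.9) and 21.5 in RPUV (18.5 to 24.9), which was 3.78-fold below WTctrl (3.20 to 4.48). Rgs2 was at 22.5 CPM (19.4 to 26.03), 45.3 (40.5 to 50.6) and 10.8 (8.69 to 13.3), and RPUV was 2.08-fold below WTctrl (1.61 to 2.71). The log2 fold of Rgs2 was -0.60 in RPUV against WTctrl without the cells of highest doublet score by Scrublet, and 0.37 in WTUV against WTctrl with the limit of 4000 genes, both under 2-fold. At 2000 UMIs the share of keratinocytes with Nr4a1 was 11.5%, 8.73% and 3.95% in WTctrl, WTUV and RPUV, but that with Rgs2 was nearly level at 3.00%, 2.83% and 2.60%, and in WTUV its 322 UMIs came from 60 of 543 cells. Of the 5 genes that passed the filter, 2 were lower in RPUV against WTctrl and 0 higher, where 7.72% of 7477 genes were lower and 6.22% higher. Against WTUV these 2 were again lower in RPUV and 0 higher, where 3.77% of genes were lower and 4.16% higher. In WTUV against WTctrl 1 (Rgs2) was higher and 0 lower, where 2.37% and 1.35% of genes were. In RPUV against WTctrl 13 of the 17 dissociation stress genes were also lower in keratinocytes and 0 higher, with a median log2 fold of -1.31, and its part in the values of Nr4a1 was not tested. Ptger4 was also lower there, at 25.4, 20.3 and 6.61 CPM. Crem was level in keratinocytes at 10.8, 9.86 and 10.7 CPM, while their Ptgs2 was at 5.54, 7.18 and 587 CPM.

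Neutrophils could be compared between WTUV (57 cells) and RPUV (658 cells). Rgs2 went from 1288 CPM in WTUV (1138 to 1451) to 323 in RPUV (296 to 352), 3.99-fold lower (3.43 to 4.63), but with unnamed clusters given to their best panel its log2 fold was -0.79, under 2-fold. Cluster 8.2 held 46 of the WTUV neutrophils, and 8.0 held 357 of those of RPUV. Nr4a3 was 4.16-fold lower (3.40 to 5.07), from 742 to 179 CPM, and Nr4a2 2.96-fold lower (2.13 to 4.06), from 263 to 89.0. The WTUV level of Nr4a2 came from 4 of 57 cells, its share at 2000 UMIs went the other way (7.41% and 12.3%), and with WTUV cells held to under 4000 genes like the others the difference was gone (log2 fold 0.015), so no order was read from it. Nr4a1 was at 1034 and 754 CPM, 1.37-fold lower in RPUV (1.18 to 1.59). This difference was absent with cells classed one by one (log2 fold 0.0023) and with the best panel (0.012). Crem was level at 91.0 and 82.8, and Thbs1 was 1.19-fold higher in RPUV (1.01 to 1.41). Thus 3 of the 8 were at least 2-fold lower, where 11.8% of 6772 genes were, and 0 higher, where 17.3% were. Median depth was 3275 UMIs per neutrophil in WTUV and 1391.5 in RPUV. Rgs2 was thus lower by CPM in RPUV than in WTUV in macrophages, dendritic cells, neutrophils, keratinocytes and mast cells. In Langerhans cells the interval of the ratio held 1 (0.960, 0.845 to 1.09). In T cells RPUV was 1.20-fold higher (1.05 to 1.36), but this turned, to a log2 fold of -0.23, with WTUV cells held to under 4000 genes.

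Schwann cells combined high Nr4a1 and Nr4a2 with few UMIs of the other genes. In WTctrl 81 cells held 75 UMIs of Nr4a1 and 80 of Nr4a2, but 3 each of Nr4a3, Crem, Pde4d and Rgs2. In RPUV 244 cells held 297 and 301 UMIs of Nr4a1 and Nr4a2, and 6, 15, 6 and 10 of the other 4. In RPUV against WTctrl 0 of the 7 genes that passed were higher and 1 lower (Thbs1, on 2 and 4 UMIs), where 10.9% and 13.2% of genes were. Pericytes or smooth muscle cells had 4 of 7 genes higher (Nr4a2, Nr4a3, Pde4b and Thbs1) and 0 lower in RPUV, where 10.1% and 16.5% of genes were. Nr4a2 rested there on 4 UMIs in WTctrl, at 2.04-fold (0.714 to 8.01), and Nr4a3 on 6, at 2.24-fold (0.952 to 6.41), and both intervals held 1. Their Thbs1 went from 44.8 CPM (19.3 to 88.3) to 137 (109 to 170) and their Nr4a1 from 448 (355 to 557) to 258 (219 to 301), while Pde4b rested on 1 UMI in WTctrl. Endothelial cells had 1 of 7 higher (Thbs1, from 2 UMIs in WTctrl) and 1 lower (Nr4a3, 10 and 7 UMIs), where 6.29% and 9.83% of genes were. In mast cells, of which WTctrl and RPUV held 39 and 41, counts were small: 2 genes were higher and 1 lower in WTUV against WTctrl (24.5% and 18.6% of genes), 1 and 3 in RPUV against WTUV (18.4% and 22.3%) and 2 and 3 in RPUV against WTctrl (28.4% and 25.6%). Their Rgs2 was at 1684 CPM in WTctrl (1333 to 2098), 921 in WTUV (806 to 1049) and 260 in RPUV (151 to 416), beside 42.6, 117 and 5423 CPM of the 3 neutrophil genes.

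Over all cells, where class sizes differ between the libraries, the counts differed from those in macrophages, and Nr4a3 was called lower in RPUV against WTctrl over all cells but higher in macrophages. In WTUV against WTctrl 2 of 8 were higher (Crem and Thbs1) and 0 lower, where 2.87% and 6.7% of 8437 genes were. In RPUV against WTUV 0 were higher and 3 lower (Nr4a2, Nr4a3 and Rgs2), where 7.7% and 4.84% were, and in RPUV against WTctrl 1 was higher (Thbs1) and 2 lower (Nr4a3 and Rgs2), where 4.3% and 4.35% were. With the mean of the CPM of each cell 2 of these calls were lost, Nr4a2 in RPUV against WTUV (log2 fold -0.64) and Nr4a3 in RPUV against WTctrl (-0.80).

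**Figure D5:**
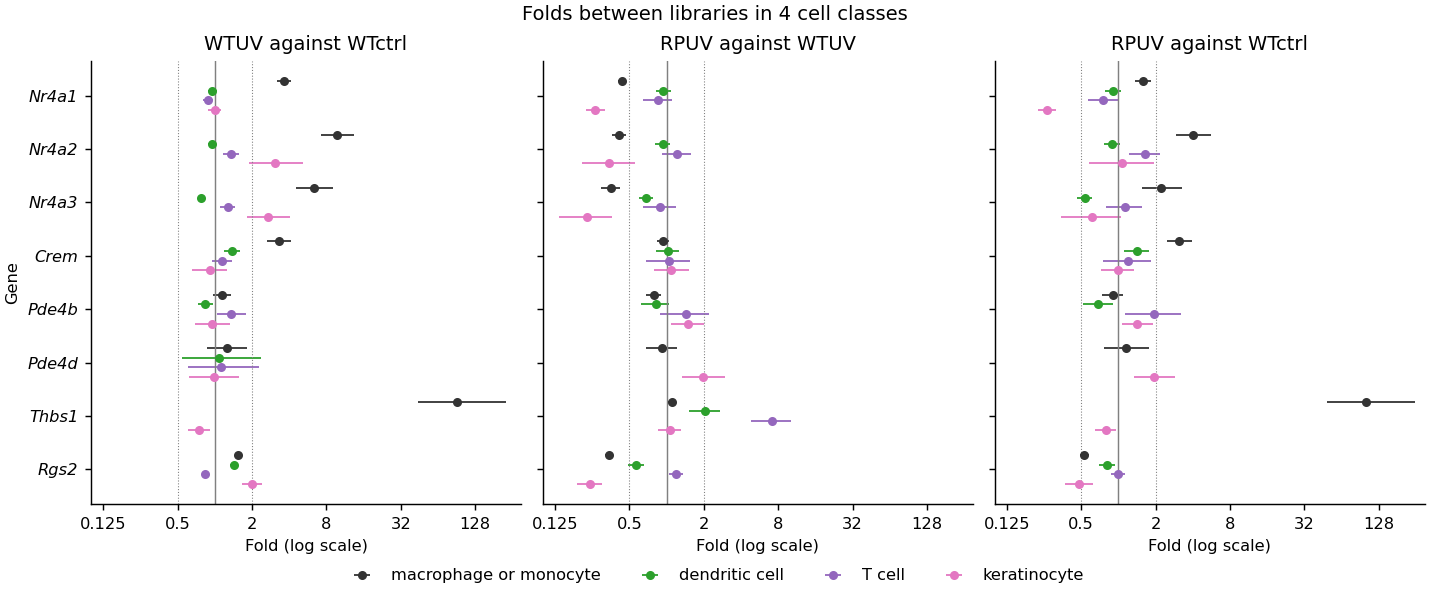
Fold between libraries (x axis, log scale) for the 8 genes (y axis) in macrophage, dendritic, T and keratinocyte-like cells, with 1 panel per comparison; bars are exact 95% intervals for counting error, dotted lines mark folds of 0.5 and 2, and values with 3 or fewer UMIs in a library are left out. Macrophages lie to the right for the Nr4a genes, Crem and Thbs1 in the left panel, while dendritic and T cells lie between 0.5 and 2.

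Most upstream genes of the pathway did not reach 2-fold in macrophages, apart from Ptger2, which was below the filter, and Adcy9. Of 4 Gs-coupled prostanoid receptor genes only Ptger4, which encodes the prostaglandin E2 receptor EP4, passed the filter, at 40.6, 40.9 and 46.7 CPM in WTctrl, WTUV and RPUV. Ptger2, which encodes EP2, was at 5.77, 2.76 and 2.54 CPM. None of 5 other prostanoid receptor genes passed. None of the 10 genes for PKA and CREB reached a 2-fold difference in any comparison. Of 6 genes for cAMP production, 4 passed the filter, and 1 (Adcy9, an adenylyl cyclase) was 2-fold lower in RPUV against WTctrl, at 12.5 against 32.6 CPM. None of the 8 other phosphodiesterase genes, 6 of which passed, reached 2-fold.

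Other cAMP-responsive genes divided. Of the 15, 11 passed the filter in macrophages. In WTUV against WTctrl 3 were higher (Il10, Nfil3 and Fosl2), where 3.28% of genes were, and 0 lower, where 0.917% were, with a median log2 fold of 0.93 over all 15 beside 0.04 over the genes tested. Nfil3, a repressor of the CREB-like bZIP family, resembled the Nr4a genes in its order, at 12.9, 42.8 and 20.7 CPM. Il10, an anti-inflammatory cytokine, was highest in RPUV, at 7.15, 14.3 and 25.2 CPM, as was Egr1, a zinc finger factor, at 157, 163 and 488. RPUV against WTUV had 1 higher (Egr1) and 2 lower (Nfil3 and Sik1, a kinase that restrains CREB coactivators), where 1.11% and 3.09% of genes were, with medians of -0.34 and -0.03. In RPUV against WTctrl 3 were higher (Egr1, Il10 and Cebpb) and 0 lower, where 4.46% and 4.15% were, with medians of 0.73 and 0.04. Of 6 other RGS genes 1 followed Rgs2 in part: Rgs1 was at 42.5, 94.8 and 38.0 CPM. Of 5 thrombospondin relatives, Thbs2, Thbs3 and Thbs4 were below the filter, and Cd36, a thrombospondin receptor, was at 321, 154 and 134 CPM. The 17 dissociation stress genes, which share Fos, Fosb, Junb, Egr1 and Dusp1 with the cAMP list, had 3 members higher and 0 lower in WTUV against WTctrl, 1 and 0 in RPUV against WTUV, and 4 and 0 in RPUV against WTctrl, against the same shares of all genes, with medians of 0.65, 0.32 and 0.67, and their part in the values of the 8 genes was not tested.

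The genes were also compared for likeness over the 25 combinations of class and library with at least 50 cells. The levels of Nr4a3 and Crem ran most alike (Pearson r = 0.89 on the log scale), followed by Crem and Rgs2 (0.85) and Nr4a3 and Rgs2 (0.84). Thbs1 had its best match in Pde4b (0.38), and Pde4b and Pde4d did not run together (-0.09). Outside the 8, the gene whose level was most like their mean standardised level was Ifrd1 (r = 0.93), followed by Gm26532 (0.89), Csrnp1 (0.88) and Per1 (0.88), the last a clock gene on the cAMP list. These combinations share 3 libraries and differ in depth, so the correlations are descriptions across classes and not across replicates.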

How the data were processed

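The authors deposited raw UMI counts, one matrix a library, from Cell Ranger 6.1.1 (per the file headers) on mm10 (per the submitters' processing notes), restricted to called cells and not normalized. Cells with more than 200 genes, fewer than 4000 (6000 in WTUV) and under 10% mitochondrial UMIs were kept, as in the methods of the study. Libraries were integrated with SCTransform (Seurat 5.3.0, sctransform 0.4.2; 3000 features without the 8 genes, 30 dimensions, resolution 0.8), sub-clustered with Leiden (leidenalg 0.10.2) and named from 19 marker panels. Clusters needed a panel score of 1, a lead of 0.5 and 3 detected markers, limits set after clusters were seen; 23 of 138 stayed unnamed, with 507, 804 and 322 cells. No doublets were removed: Scrublet (scanpy 1.11.5) marked 1.32%, 0.0191% and 0.0329% of cells, too few to use. Counts were summed per class and library (exact Poisson and conditional fold intervals; Wilson for shares; scipy 1.17.1). Scripts were tested on simulated data. edgeR and other tests were not applied, with 1 library per group. The 8 genes and all lists were chosen with earlier results of these data known. Named genes are the 8, list members past 2-fold in macrophages, at most 4 others of a list and the genes most like the 8; Ptger4 in keratinocytes was added after its values were seen. Libraries were deposited with 34985549, 82722013 and 37689836 UMIs. Alternatives covered integration, naming, filters, scaling, free RNA and pseudocount.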

Additional observations from a re-analysis of the deposited data

Results flagged for a closer look

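For 3 genes the change from WTctrl to RPUV was at least 2-fold in opposite directions in 2 cell classes, counting only folds with over 3 UMIs in each library and an interval that left out 1. Opposite folds of Pde4b, Pde4d and Thbs1 rested on 3 or fewer UMIs in a library and were not counted. The difference between classes was not tested, since each group had 1 library. Nr4a1 was 4.28-fold higher in RPUV fibroblasts, and its ratio in keratinocytes was 0.265. Nr4a3 was 16.4-fold higher in fibroblasts, and its ratio in endothelial cells was 0.186, from 10 UMIs in WTctrl and 7 in RPUV. Rgs2 was 2.44-fold higher in fibroblasts, and its ratio in mast cells was 0.154, from 79 UMIs in 39 cells of WTctrl and 17 UMIs in 41 cells of RPUV. The fibroblast class included clusters led by Crabp1 and the keratinocyte class clusters with sebocyte genes. The cells of the 2 libraries lay partly in different clusters of both classes, and the part of this in the ratios was not tested.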

How the results depend on the processing

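Of 10 alternatives for the counts of genes at least 2-fold higher or lower in macrophages, all left each count within 1.5 times its value except one: with unnamed clusters given to their best panel, 2 genes and not 4 were higher in RPUV against WTctrl. The median log2 fold of the 8 genes kept its direction but moved. In WTUV against WTctrl, from 1.74, it was 1.41 with cells classed one by one from marker UMIs, 1.30 with unnamed clusters given to their best panel, 2.09 with WTUV cells, too, held to under 4000 genes and 1.33 with a pseudocount of 10 CPM. In RPUV against WTUV, from -0.76, it was -0.95 without integration, -0.42 with cells classed one by one, -1.09 with the limit of 4000 genes and -0.61 with the pseudocount of 10 CPM. In RPUV against WTctrl, from 0.83, it was 0.51 without integration, 0.34 with the best panel and 0.52 with the pseudocount of 10 CPM. Among log2 folds past 2-fold, 9 values turned. With the best panel Nr4a3 in macrophages was -0.26 in RPUV against WTctrl. With cells classed one by one Thbs1 in T cells was -3.99 in RPUV against WTUV and -1.67 against WTctrl, and Pde4b in mast cells 0.98 in RPUV against WTctrl. With the limit of 4000 genes Thbs1 in Langerhans cells was -1.74 in WTUV against WTctrl, and Nr4a2 in neutrophils 0.015 in RPUV against WTUV. Without integration Thbs1 in dendritic cells was -0.046 in RPUV against WTUV. Without the cells of highest Scrublet score Thbs1 in Schwann cells was 0 in RPUV against WTctrl. Without cells carrying a neutrophil UMI, an alternative chosen after seeing the data, Thbs1 in mast cells was -0.13 in RPUV against WTUV. The causes were not tested. Of the other values of single log2 folds, 1651 kept their direction within the counting interval, 69 turned within it, 208 moved beyond it without turning and 47, from folds under 2, turned and moved beyond it. In macrophages the last were Thbs1 in RPUV against WTUV under 5 alternatives, down to -0.39 with the limit of 4000 genes, and with cells classed one by one Crem in RPUV against WTUV, at 0.20, and Pde4b in WTUV against WTctrl, at -0.16. No paired analysis was possible because each group held 1 library, and for the same reason no library could be left out. Depth limited Pde4d in macrophages and several genes in mast and endothelial cells. The stromal classes of WTUV held too few cells to compare.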
